A study of Mus musculus with 6 samples.

Results

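The transcripts described here are 34 precursors of hypothalamic neuropeptides and related secreted peptides, chosen by gene symbol from the 24015 genes counted in the arcuate nucleus (ARC) of female mice. They are the precursors outside the kisspeptin, neurokinin B and dynorphin group, the opioid, feeding and growth hormone systems, and they come from the ARC and from other hypothalamic nuclei. RNA-seq was made from manually microdissected ARC of adult females, labelled as of a mixed background of CD-1, 129P2 and C57BL/6. The 3 control females were Esr1fl/fl, with loxP-flanked alleles of the gene for estrogen receptor alpha (ERα) and no Cre. The 3 mutant females were Esr1fl/fl;Nkx2-1-Cre, so that both genotypes carried the floxed alleles and the mutants also carried Cre under the *Nkx2-1* promoter. That promoter is active from development on across the medial basal hypothalamus and is not restricted to the ARC or to neurons of any peptide type. Controls and mutants are numbered 1 to 3 below. In tissue RNA, fewer cells of a type and less RNA per cell cannot be told apart.

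Neuropeptides are made as larger precursors, cut by convertases in dense-core vesicles and released to act on G protein-coupled receptors. Many of the precursors here have their main cell groups in other parts of the hypothalamus: vasopressin and oxytocin in the paraventricular and supraoptic nuclei, orexin and melanin-concentrating hormone in the lateral hypothalamus, and vasoactive intestinal peptide and prokineticin 2 in the suprachiasmatic nucleus. Others, such as galanin and neurotensin, are also made by ARC neurons, some of which project to the median eminence.

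Libraries held 11792440 to 17877137 counts in genes, at which 3 counts correspond to 0.175 to 0.248 CPM, the count relative to the library's total after edgeR's TMM scaling. *Esr1* was at 64.5, 57.5 and 48.5 CPM in controls 1 to 3 and at 11.8, 9.55 and 7.06 CPM in mutants 1 to 3. It fell by 2.59 on the log2 scale (SE 0.18, adjusted p = 0.000884). Of 10 ARC neuron markers, 10 were measured at a mean of 0.5 CPM or more, with summed levels of 898 to 952 CPM in controls and 936 to 1340 CPM in mutants. Single markers differed: *Slc6a3* was lower in every mutant and passed edgeR's test (log2 fold change -2.25, adjusted p = 0.000884). *Kiss1* (2.16, adjusted p = 0.258) and *Tac2* (0.80, adjusted p = 0.415) were higher in every mutant without passing, and the others overlapped. Control 2 stood apart from the other 5 libraries. The 6 markers of the pars tuberalis and pituitary, a tissue that lies against the median eminence, summed to 5.41 CPM in control 2 and to 458 to 739 CPM in the others. The genotypes also differed in myelin transcripts: 5 of 5 oligodendrocyte markers were higher in every mutant than in every control, against 7.88% of all genes tested. Of these, 1, *Cldn11*, passed the test, against 0.0591% of all genes on the higher side. The markers summed to 524 to 981 CPM in controls and 1280 to 1430 CPM in mutants. Microglial markers summed to 121 to 133 CPM in controls and 158 to 170 CPM in mutants. The part of tissue composition in the values below was not tested.

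Of the 34 precursors, 26 were measured at a mean of 0.5 CPM or more over the 6 libraries, and 19 reached 0.5 CPM in every library. The 8 below that level were *Crh*, *Npw*, *Rln3*, *Ucn*, *Ucn3*, *Uts2*, *Calcb* and *Cort*. Per kilobase of exon, *Cck* (cholecystokinin) had the highest mean level at 111.5 CPM per kb, then *Pcsk1n* (proSAAS, a granin-like inhibitor of prohormone convertase 1) at 107.4, *Gal* (galanin) at 83.0 and *Nucb2* (the precursor of nesfatin-1) at 56.1. A gap followed, with *Nts* (neurotensin) at 20.0, *Avp* (vasopressin) at 15.4, *Oxt* (oxytocin) at 13.7 and *Nmb* (neuromedin B) at 8.74 CPM per kb. The other 26 precursors lay between 0.018 CPM per kb for *Npw* and 4.73 CPM per kb for *Galp*. The order within the leading 4 was not the same in each library, since *Cck* was at 3.43 CPM per kb in control 2 and at 107.7 to 154.8 in the other 5.

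**Figure D1:**
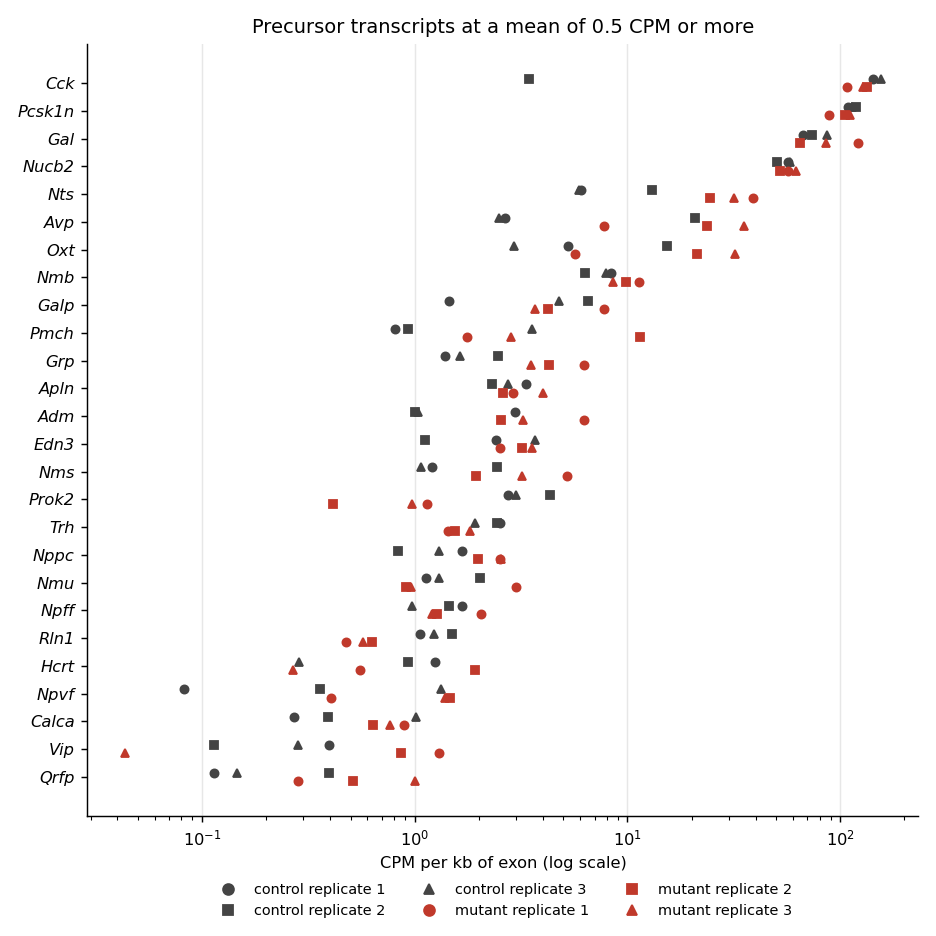
Level of each precursor measured at a mean of 0.5 CPM or more, in CPM per kb of exon on a log scale, with 1 point for each library (grey, controls; red, mutants; the marker shape gives the replicate number). *Pcsk1n* and *Nucb2* form tight groups, while *Cck* has control 2 far to the left at 3.43 CPM per kb and *Avp* and *Oxt* are spread widely.

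The precursors varied more between libraries of the same genotype than most transcripts, and the part of the dissection in this spread was not tested. The median within-genotype SD of log2 CPM was 0.653 over the 24 precursors tested and 0.179 over all 15236 genes tested. Among genes at a mean of 5 CPM or more, it was 0.43 for 10 precursors and 0.146 for 11604 genes. *Cck* had a larger SD than 99.8% of tested genes, *Avp* than 99.1% and *Oxt* than 98.7%. *Nucb2* and *Pcsk1n* had larger SDs than only 27.9% and 32.3% of tested genes.

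The comparison of genotypes asks which of these transcripts differ when ERα is deleted. In edgeR's quasi-likelihood test, 24 of the 34 precursors had enough counts to be tested, and 0 passed an adjusted p of 0.05, against 18 of all 15236 genes tested, or 0.118% (0.0591% in each direction). At an unadjusted p under 0.05 there were 8 of 24 precursors (33.3%, against 8.85% of all genes tested). Of these, 6 were higher in mutants (*Nts*, *Grp*, *Nms*, *Qrfp*, *Adm* and *Nppc*, 25% against 4.84%) and 2 were lower (*Prok2* and *Rln1*, 8.33% against 4.01%). *Rln1* passed the filter on low counts only through the controls, so its direction was tied to its being tested, and it is 1 of these 2, of the 8 and of the 7 without overlap below. The filter asked for 3 libraries over its cutoff, and *Qrfp* had 1 control and 3 mutants over it. That *Qrfp* was tested thus rested mainly on the mutants, and it is 1 of the 6 higher and of the 8. DESeq2 called 3 precursors, *Nts* and *Grp* higher and *Prok2* lower, against 191 of 15079 genes, or 1.27%. The 2 genotypes did not overlap for 7 of 24 precursors (29.2%, against 15.8% of all genes tested), *Nts*, *Nmb*, *Grp* and *Nppc* being higher (16.7%, against 7.88%) and *Trh*, *Rln1* and *Prok2* lower (12.5%, against 7.88%). The median log2 fold change was 0.39 over the 24 precursors and 0.0036 over all genes tested. The log2 fold change was above 0 for 20 of the 24 precursors, against 7763 of all 15236 genes tested. *Qrfp* and *Calca* are among these 20, each with 1 control and 3 mutants over the filter's cutoff. That these 2 were tested thus rested mainly on the mutants.

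**Figure D2:**
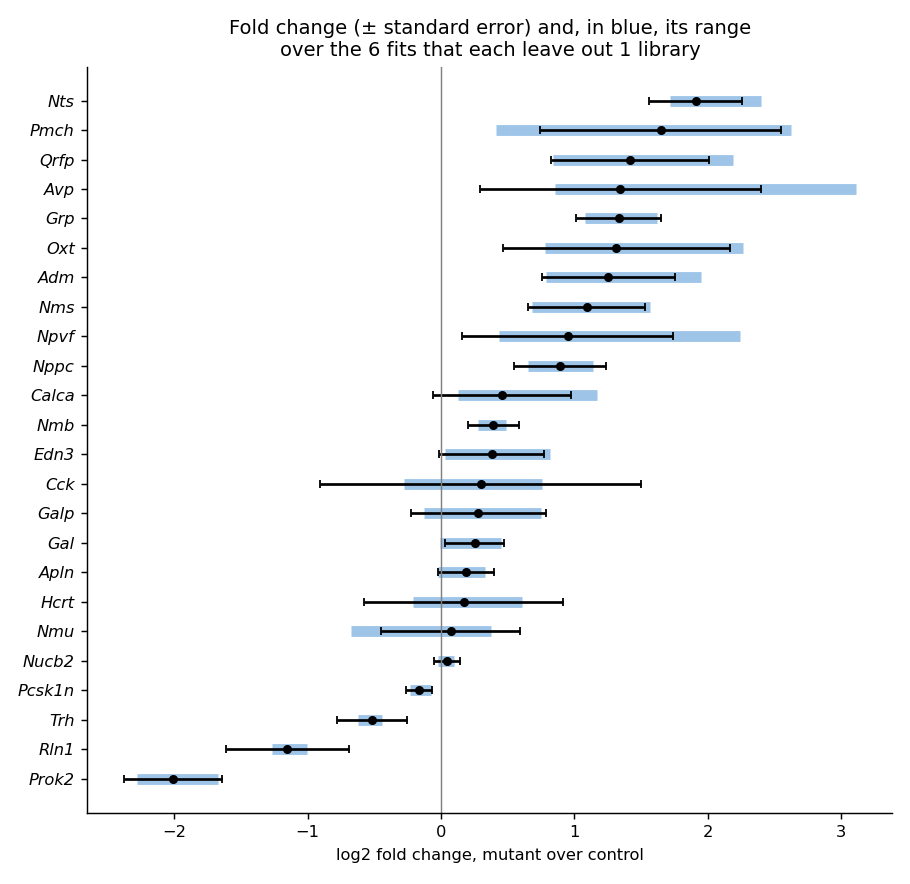
Log2 fold change of mutant over control for each precursor tested (point, with bars of ± 1 standard error) and, in blue, the range of the same value over the 6 fits that each leave out 1 library. *Prok2* at -2.01 and *Nts* at 1.91 keep their side of 0 in every such fit, while the blue range of *Cck* runs from -0.27 to 0.75.

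*Nts* had the largest difference upward. Neurotensin is a peptide of ARC and lateral hypothalamic neurons that acts on dopamine cells, feeding and body temperature. Its transcript was at 7.10, 15.3 and 6.96 CPM in controls 1 to 3 and at 45.7, 28.7 and 37.1 CPM in mutants 1 to 3. Every mutant was above every control, and control 2 was the highest of the controls. The fold was 3.76 (log2 fold change 1.91, SE 0.35, edgeR unadjusted p = 0.00128, adjusted p = 0.163). The call depended on control 2 and on the tool: without control 2 the log2 fold change was 2.40 (SE 0.21, adjusted p = 0.000917), and DESeq2 gave an adjusted p of 5.62e-09 with all 6 libraries. Over all settings tried, the adjusted p ran from 5.62e-09 to 0.408, and leaving out any 1 library left the log2 fold change between 1.72 and 2.40.

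*Prok2* had the largest difference downward. Prokineticin 2 is a secreted signal of the suprachiasmatic clock and a guidance cue for neurons that migrate into the olfactory bulb, and it acts on the receptors encoded by *Prokr1* and *Prokr2*. The transcript was at 4.15, 6.52 and 4.52 CPM in controls 1 to 3 and at 1.73, 0.628 and 1.47 CPM in mutants 1 to 3. Every mutant was below every control. The log2 fold change was -2.01 (SE 0.37, edgeR unadjusted p = 0.000258, adjusted p = 0.0706), a ratio of 0.248. DESeq2 gave an adjusted p of 0.000596 and the fit that kept genes with at least 1 count in any library gave 0.00501, in a range over all settings of 0.000596 to 0.257. The 4 suprachiasmatic markers summed to 378 to 530 CPM in controls and 446 to 484 CPM in mutants, most of it *Rorb* and *Six3*. They did not share 1 direction: *Six3* was higher in every mutant (log2 fold change 0.305), and *Lhx1*, *Syt10* and *Rorb* overlapped (-0.50, -0.05 and -0.16). *Lhx1*, the least abundant, was at 3.22, 3.20 and 5.595 CPM in controls and at 1.40, 3.02 and 3.93 CPM in mutants. The part of suprachiasmatic tissue in the *Prok2* difference was not tested. Of the receptors, *Prokr1* was at 14.4 to 15.5 CPM in controls and 13.5 to 18.2 CPM in mutants. *Prokr2* was at 56.4, 16.8 and 56.7 CPM in controls and 49.3 to 69.8 CPM in mutants, with control 2 again the lowest library. *Vip* (vasoactive intestinal peptide), another suprachiasmatic precursor, was at 0.603, 0.175 and 0.430 CPM in controls and at 1.98, 1.32 and 0.0666 CPM in mutants, too few counts to be tested. *Nms*, also made in the suprachiasmatic nucleus, was on the higher side in mutants, with the values given below.

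**Figure D3:**
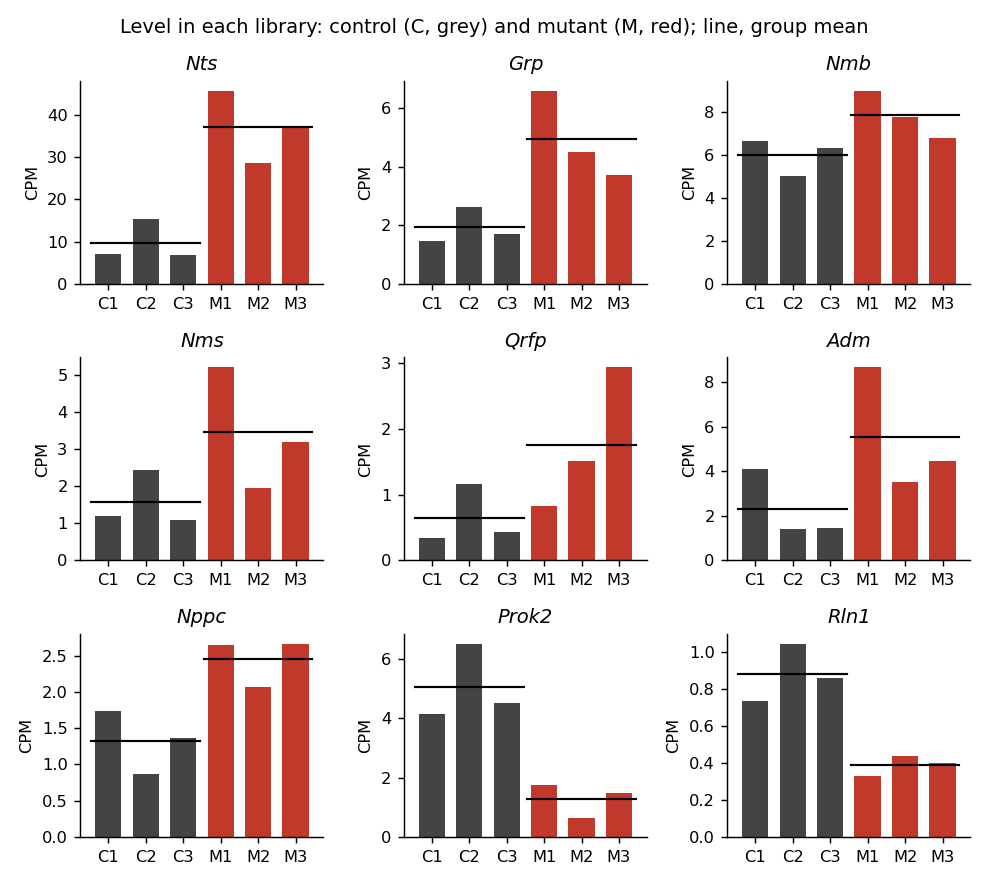
CPM in each library of the 8 precursors with an unadjusted p under 0.05 and of *Nmb*, 1 bar for each library (grey, controls C1 to C3; red, mutants M1 to M3), with a line at each group mean. The *Nts* bars of the mutants all stand above the control bars, the *Prok2* and *Rln1* bars of the mutants all stand below them, and in *Nms*, *Qrfp* and *Adm* the genotypes overlap.

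The sequence upstream of the start is shown for the precursors that differed most and for the hormone pair *Avp* and *Oxt*, since the deleted gene encodes a transcription factor with a known binding motif. Each run is the 250 bases before the start, from the RefSeq promoter table, located by an exact match on NCBIM37, with *Prok2* at chr6:99676387-99676636 on the minus strand, *Nts* at chr10:101953053-101953302 on the minus strand, *Avp* at chr2:130408325-130408574 on the minus strand and *Oxt* at chr2:130401655-130401904 on the plus strand. Capitals mark matches to the motifs searched. The start is that of the promoter table, and distances below are counted from it. For *Avp* and *Oxt* it lies upstream of the start in the gene coordinates given further below, which come from another annotation.
Prok2: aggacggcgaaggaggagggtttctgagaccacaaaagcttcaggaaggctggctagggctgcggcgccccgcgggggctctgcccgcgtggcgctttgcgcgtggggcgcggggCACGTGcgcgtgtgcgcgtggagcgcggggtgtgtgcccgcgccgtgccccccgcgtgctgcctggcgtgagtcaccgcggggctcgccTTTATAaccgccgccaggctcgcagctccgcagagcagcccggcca
Nts: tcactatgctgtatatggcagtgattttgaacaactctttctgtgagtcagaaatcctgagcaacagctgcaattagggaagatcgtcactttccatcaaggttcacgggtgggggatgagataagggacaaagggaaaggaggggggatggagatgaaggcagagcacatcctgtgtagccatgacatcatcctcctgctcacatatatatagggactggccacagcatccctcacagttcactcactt
Avp: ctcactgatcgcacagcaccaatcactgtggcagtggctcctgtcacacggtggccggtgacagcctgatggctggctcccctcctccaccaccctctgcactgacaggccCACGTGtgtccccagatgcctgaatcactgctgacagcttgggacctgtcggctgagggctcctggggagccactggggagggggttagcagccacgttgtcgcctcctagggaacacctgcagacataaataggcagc
Oxt: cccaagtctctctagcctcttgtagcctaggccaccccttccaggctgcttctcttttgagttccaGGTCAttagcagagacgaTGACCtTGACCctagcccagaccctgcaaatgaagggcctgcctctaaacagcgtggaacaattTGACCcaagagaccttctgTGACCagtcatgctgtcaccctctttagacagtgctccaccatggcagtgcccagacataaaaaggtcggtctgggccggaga

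The motifs searched on both strands were the full estrogen response element (GGTCA and TGACC with 3 bases of any kind between them), its core GGTCA, the cyclic AMP response element TGACGTCA, the TATA box TATAAA and the E-box CACGTG, the last of which was added after the sequences had been seen. The core is part of the full estrogen response element, so those 2 searches overlap. A window was found for 29 of the 34 precursors. The full estrogen response element was in 0 of these 29 and in 0.0639% of 32851 promoter windows. Its core GGTCA was in 11 of 29 (37.9%), against 35.2% of all windows. The *Oxt* window held the core 5 times, on either strand, starting 184, 166, 160, 102 and 83 bases before the start. The cyclic AMP response element was in 1 of 29 (3.45%, *Ucn*), against 1.55%. The TATA box was in 9 of 29 (31.0%), against 12.4% of all windows, with exact matches on either strand counted and near matches left out. *Prok2* was among them, with TTTATA starting 46 bases before the start, which reads TATAAA only on the strand opposite to the gene. The E-box was in 4 of 29 (13.8%, *Avp*, *Cck*, *Nmu* and *Prok2*), against 6.02%, and it starts 135 bases before the start of *Prok2* and 139 bases before that of *Avp*. No motif of the 5 was found in the *Nts* window.

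The bombesin-like and neuromedin U families hold 4 precursors. *Grp*, gastrin-releasing peptide, was at 1.47, 2.62 and 1.72 CPM in controls 1 to 3 and at 6.60, 4.52 and 3.73 CPM in mutants 1 to 3, all mutants above all controls. Its log2 fold change was 1.33 (SE 0.32, unadjusted p = 0.00172, adjusted p = 0.178), and DESeq2 gave an adjusted p of 0.0424, in a range over settings of 0.0424 to 0.495. *Nmb*, neuromedin B, which binds the receptor encoded by *Nmbr*, was at 6.634, 5.003 and 6.312 CPM in controls and at 8.993, 7.791 and 6.795 CPM in mutants, without overlap, with a log2 fold change of 0.39 (SE 0.19, unadjusted p = 0.0684). The exons of *Nmb* share 326 bases with *Sec11a* on the same strand, so its counts are uncertain. *Nms*, neuromedin S, a suprachiasmatic peptide, was at 1.21, 2.44 and 1.08 CPM in controls and at 5.20, 1.95 and 3.20 CPM in mutants, and mutant 2 lay below control 2. Its log2 fold change was 1.09 (SE 0.44, unadjusted p = 0.0315, adjusted p = 0.497). *Nmu*, neuromedin U, was at 0.938 to 1.69 CPM in controls and 0.754 to 2.48 CPM in mutants and differed by 0.07 on the log2 scale (SE 0.52). The exons of *Nmu* share 110 bases with *4930432L08Rik*, and those of *Pcsk1n* 135 bases with *Eras*, on the opposite strand in both cases.

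*Avp* and *Oxt* encode the magnocellular hormones of water balance and of parturition and milk ejection. They are neighbours on chromosome 2 (NCBIM37), *Oxt* at chr2:130401909-130402790 on the plus strand and *Avp* at chr2:130406356-130408290 on the minus strand, with 3565 bases between them. *Avp* was at 1.54, 11.9 and 1.44 CPM in controls 1 to 3 and at 4.46, 13.7 and 20.4 CPM in mutants 1 to 3. *Oxt* was at 2.81, 8.202 and 1.58 CPM in controls and at 3.05, 11.4 and 17.2 CPM in mutants. Control 2 and mutants 2 and 3 were high for both genes, controls 1 and 3 and mutant 1 were low, and the genotypes overlapped. The range from the lowest to the highest library was 14.2-fold for *Avp* and 10.9-fold for *Oxt*, while the ratio of *Avp* to *Oxt* per kb stayed between 0.51 and 1.36. The log2 fold changes were 1.35 (SE 1.06, adjusted p = 0.796) for *Avp* and 1.32 (SE 0.85, adjusted p = 0.740) for *Oxt*, and without control 2 they were 3.11 (adjusted p = 0.433) and 2.27 (adjusted p = 0.649). Without mutant 3 they were 0.86 and 0.78.

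Markers of other hypothalamic nuclei did not share 1 order across the libraries. *Sim1*, which marks the paraventricular and supraoptic nuclei, was at 0.938, 2.91 and 1.22 CPM in controls 1 to 3 and at 1.32, 2.26 and 2.27 CPM in mutants 1 to 3. *Fezf1*, which marks the ventromedial nucleus, was at 1.14, 32.8 and 24.2 CPM in controls and at 9.90, 47.3 and 52.3 CPM in mutants. *Otp*, another marker of the paraventricular and supraoptic nuclei, was at 3.69, 4.25 and 2.01 CPM in controls and at 4.46, 3.20 and 2.80 CPM in mutants, and *Pou3f2*, the third, was at 10.8, 18.5 and 15.7 CPM and at 9.74, 14.9 and 17.99 CPM. *Sim1* was highest in the 3 libraries that were high for *Avp* and *Oxt*, but *Otp* was highest in mutant 1, where both hormones were low, and *Fezf1* and *Pou3f2* were also high in control 3. The 3 paraventricular and supraoptic markers summed to 15.5 to 25.7 CPM in controls and 15.5 to 23.1 CPM in mutants, and the 4 ventromedial markers to 22.3 to 95.8 and 35.0 to 162 CPM. The part of the dissection in the hormone levels was not tested.

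*Cck*, the precursor of cholecystokinin, a peptide of satiety and of many forebrain neurons, had the largest within-genotype SD (2.22 on the log2 scale). It was at 120.8, 2.91 and 131.3 CPM in controls 1 to 3 and at 91.3, 113.1 and 107.9 CPM in mutants 1 to 3. Control 2 alone was low, 31.4- to 45.1-fold below the other libraries. With all libraries the log2 fold change was 0.30 (SE 1.21) in edgeR and 1.64 in limma voom (adjusted p = 0.700). Without control 2 it turned to -0.27 (SE 0.11, unadjusted p = 0.0244, adjusted p = 0.560). The glycoprotein hormone gene *Cga* was at 3.26 CPM in control 2 and at 372.3 to 581.7 CPM in the others, and *Tshb* and *Pitx1*, which also mark pars tuberalis thyrotrophs, were at 1.92 and 0.233 CPM in control 2. Of the 11604 tested genes at a mean of 5 CPM or more, 12 had every other library at least as far above control 2 as *Cck* did, *Cck*, *Cga*, *Tshb*, *Pitx1*, *Fshb* and *Gnrhr* among them, a set named after its values were seen. Of the other pituitary markers, *Gh* and *Pou1f1* were at or below 0.646 CPM in every library and *Prl* was between 0 and 4.81 CPM. Whether the *Cck* reads come from pars tuberalis cells was not tested.

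**Figure D4:**
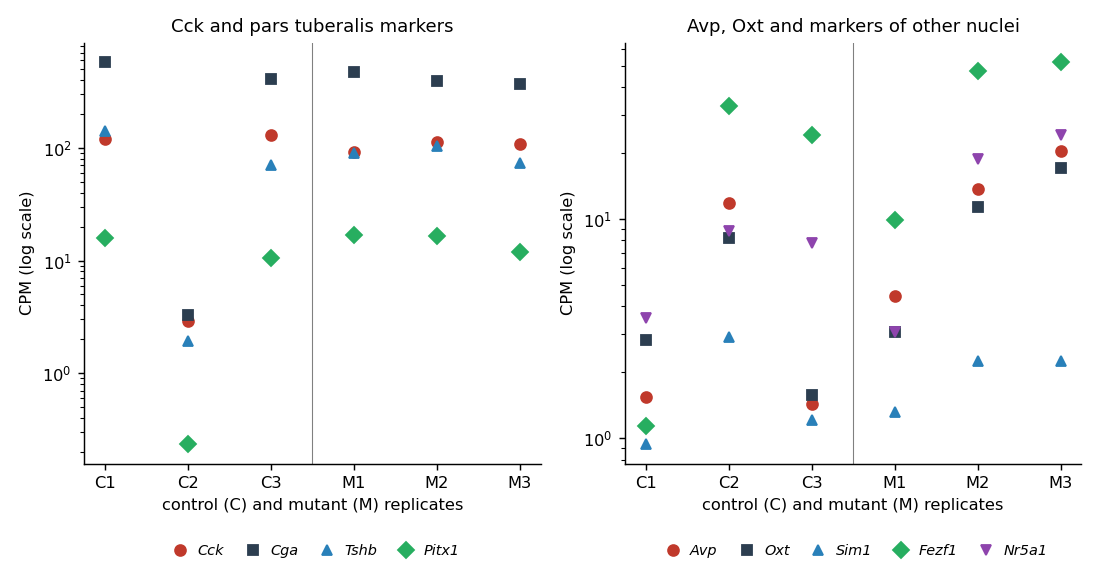
CPM in each library on a log scale (C, controls; M, mutants), at left for *Cck* with the pars tuberalis markers *Cga*, *Tshb* and *Pitx1*, and at right for *Avp* and *Oxt* with *Sim1* of the paraventricular and supraoptic nuclei and *Fezf1* and *Nr5a1* of the ventromedial nucleus. *Avp* and *Oxt* have the same order of libraries from high to low, and *Cck*, *Cga*, *Tshb* and *Pitx1* all have their lowest point in control 2.

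*Gal*, galanin, a peptide of lactotroph and feeding control, was at 47.8, 52.3 and 61.4 CPM in controls 1 to 3 and at 85.9, 45.9 and 61.2 CPM in mutants 1 to 3. Mutant 1 alone stood above the controls, and the log2 fold change was 0.25 (SE 0.22). *Galp*, galanin-like peptide, made by ARC neurons near the median eminence, was at 0.938 to 4.25 CPM in controls and 2.40 to 5.03 CPM in mutants (log2 fold change 0.28, SE 0.51). The granin-like *Pcsk1n* was at 237.9, 259.3 and 249.6 CPM in controls and at 193.5, 229.6 and 243.5 CPM in mutants, which is a difference of -0.16 in log2 (SE 0.10, unadjusted p = 0.119). *Nucb2* was at 84.5 to 97.8 CPM in controls and 87.8 to 103.9 CPM in mutants, with a log2 fold change of 0.04 (SE 0.09), the narrowest error with *Pcsk1n* among the precursors. A p above the threshold does not show equal levels, and these 2 errors give the tightest limits of the set.

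The lateral hypothalamic precursors were near the lower limit. *Pmch*, melanin-concentrating hormone, was at 0.603, 0.698 and 2.65 CPM in controls 1 to 3 and at 1.32, 8.61 and 2.13 CPM in mutants 1 to 3. Its log2 fold change of 1.65 (SE 0.91, unadjusted p = 0.116) rested on mutant 2 and was 0.42 without it. The exons of *Pmch* share 435 bases with *4930547N16Rik* on the opposite strand, and it was not known whether reads were counted by strand. *Hcrt*, orexin, was at 0.215 to 0.938 CPM in controls and 0.200 to 1.44 CPM in mutants. The 3 lateral hypothalamic markers summed to 5.29 to 16.2 CPM in controls and 10.2 to 19.0 CPM in mutants.

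The releasing hormones were also low. *Trh*, thyrotropin-releasing hormone, was at 3.48, 3.37 and 2.65 CPM in controls 1 to 3 and at 1.98, 2.14 and 2.53 CPM in mutants 1 to 3. The genotypes did not overlap, and the log2 fold change was -0.51 (SE 0.26, unadjusted p = 0.0771). *Crh*, the corticotropin-releasing hormone of the stress axis, had 2, 5 and 1 counts in controls and 15, 6 and 4 in mutants and was not tested. Its relatives *Ucn* and *Ucn3*, urocortins, had at most 1 and 6 counts in any library.

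In the RFamide group, *Qrfp*, a peptide of feeding and arousal, was at 0.335, 1.16 and 0.430 CPM in controls 1 to 3 and at 0.825, 1.51 and 2.93 CPM in mutants 1 to 3. Its genotypes overlapped, since mutant 1 was below control 2, and the log2 fold change was 1.42 (SE 0.59, unadjusted p = 0.0366, adjusted p = 0.519). It was 2.19 without control 2 and 0.84 without mutant 3. Since *Qrfp* was tested mainly through its level in the mutants, its difference is given as a description. *Npvf*, the precursor of the gonadotropin-inhibitory peptides of the dorsomedial nucleus, was at 0.0670 to 1.08 CPM in controls and 0.330 to 1.19 CPM in mutants (log2 fold change 0.95, SE 0.79, and 0.44 to 2.24 over fits that leave out 1 library). *Npff* had 6 to 11 counts in every library, and *Npw* had a single count in all, in mutant 3.

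In the relaxin family, *Rln1* was at 0.737, 1.05 and 0.861 CPM in controls 1 to 3 and at 0.330, 0.440 and 0.400 CPM in mutants 1 to 3. The genotypes did not overlap, and the log2 fold change was -1.15 (SE 0.46, unadjusted p = 0.0293, adjusted p = 0.489). Since it was tested only through its level in the controls, this difference is given as a description. *Rln3* had 2 to 10 counts in controls and 0 to 2 in mutants and was not tested. *Uts2* (urotensin 2) and *Cort* (cortistatin) had at most 5 counts in any library.

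The vascular and calcitonin-family precursors were measured in part. *Adm*, adrenomedullin, a vasodilator also made by neurons and endothelium, was at 4.09, 1.40 and 1.43 CPM in controls 1 to 3 and at 8.66, 3.52 and 4.46 CPM in mutants 1 to 3, with control 1 above mutant 2. Its log2 fold change was 1.26 (SE 0.50, unadjusted p = 0.0355, adjusted p = 0.515), and it was 1.95 without control 1 and 0.79 without mutant 1. *Nppc*, C-type natriuretic peptide, was at 1.74, 0.873 and 1.36 CPM in controls and at 2.64, 2.07 and 2.67 CPM in mutants, without overlap (log2 fold change 0.89, SE 0.35, unadjusted p = 0.0268, adjusted p = 0.478). *Apln* (apelin) was at 7.27 to 10.4 CPM in controls and 8.17 to 12.7 CPM in mutants, and *Edn3* (endothelin 3) at 4.60 to 15.1 and 10.3 to 14.7 CPM. *Calca*, calcitonin gene-related peptide, was at 0.402 to 1.51 CPM in controls and 0.942 to 1.32 CPM in mutants, and *Calcb* had at most 4 counts in any library. The 3 endothelial markers summed to 52.5 to 73.8 CPM in controls and 60.4 to 68.8 CPM in mutants.

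Receptors and binding proteins of these peptides were read from the same test, as a list of 57 genes. Of these, 48 were tested and 1 passed, the relaxin receptor *Rxfp1*, against 0.118% of all genes. It was at 24.1, 20.8 and 24.6 CPM in controls 1 to 3 and at 5.12, 4.40 and 4.33 CPM in mutants 1 to 3. *Rxfp1* fell in mutants (log2 fold change -2.33, SE 0.15, adjusted p = 0.000297), and it passed in all 12 settings tried. *Rxfp2*, the receptor of the related insulin-like peptide 3, was at 5.56, 5.53 and 11.2 CPM in controls and at 3.22, 2.83 and 3.60 CPM in mutants (unadjusted p = 0.00262, adjusted p = 0.219).

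A further 13 receptor-list genes had an unadjusted p under 0.05, so that 14 of 48 (29.2%) did, against 8.85% of all genes tested. The 9 on the higher side were *Oxtr*, *Nmbr*, *Trhde*, *Crhbp*, *Galr1*, *Mchr1*, *Npr3*, *Calcrl* and *Sort1* (18.8%, against 4.84% of all genes tested), and the 5 on the lower side were *Rxfp1*, *Rxfp2*, *Nmur2*, *Cckar* and *Sstr1* (10.4%, against 4.01%). *Oxtr*, the oxytocin receptor, was at 30.5, 36.6 and 32.6 CPM in controls 1 to 3 and at 53.2, 46.5 and 48.6 CPM in mutants 1 to 3. Its adjusted p was 0.0706, and it was 0.0413 without control 2 and 0.0035 in DESeq2, in a range over settings of 0.0035 to 0.257. *Nmbr*, the receptor of neuromedin B, was at 1.41, 3.26 and 1.58 CPM in controls and at 5.36, 5.21 and 5.60 CPM in mutants. Its adjusted p was 0.177, and it was 0.0172 without control 2, in a range over settings of 0.0172 to 0.522. *Nmb* and *Nmbr* were both higher in every mutant than in every control, and neither passed the adjusted test. The thyrotropin-releasing hormone peptidase *Trhde* was at 72.2, 44.9 and 45.8 CPM in controls and at 80.6, 87.8 and 84.9 CPM in mutants, with the adjusted p at 0.303 and, without control 1, 0.0131. The gastrin-releasing peptide receptor *Grpr* was at 33.5 to 42.9 CPM in controls and 36.8 to 40.0 CPM in mutants, beside the higher *Grp*. The galanin receptor *Galr1* was at 1.61 to 2.79 CPM in controls and 2.97 to 5.26 CPM in mutants. *Crhbp*, which binds corticotropin-releasing hormone, was at 2.51 to 3.78 and 4.40 to 13.2 CPM. On the lower side, the neuromedin U and S receptor *Nmur2* was at 21.6 to 29.1 CPM in controls and 11.3 to 19.2 CPM in mutants, and the cholecystokinin receptor *Cckar* at 8.38 to 12.9 and 5.03 to 7.46 CPM. The genotypes did not overlap in these 4 genes, which are among 14 of the 48 tested on the list without overlap (29.2%, against 15.8% of all genes tested). None of the 4 passed the adjusted test in edgeR, and *Nmur2* had an adjusted p of 0.0357 in DESeq2, in a range over settings of 0.0357 to 0.693. The neurotensin receptor genes *Ntsr1* and *Ntsr2* were at 9.78 to 16.5 and 84.4 to 149.5 CPM in controls and 8.33 to 14.0 and 69.9 to 107.8 CPM in mutants.

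**Figure D5:**
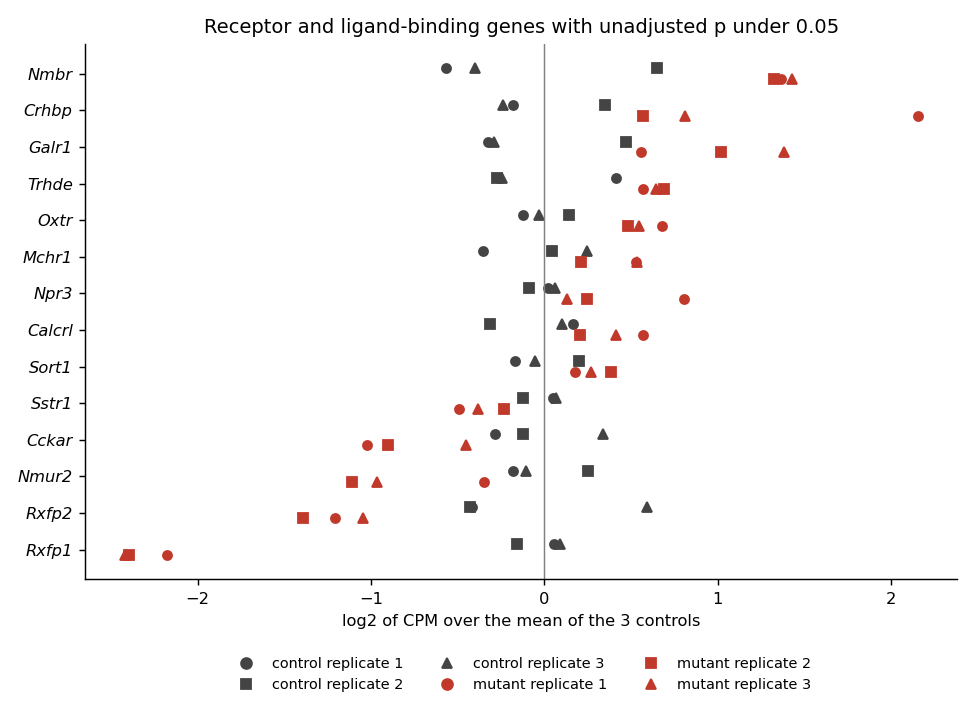
Receptor and binding-protein genes with an unadjusted p under 0.05, as log2 of each library's CPM over the mean of the 3 controls (grey, controls; red, mutants). *Rxfp1* has its 3 mutant points far to the left of its controls and is the single gene of the list past the adjusted threshold.

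Prohormone processing genes were tested in full, 20 of 20, and 0 passed in edgeR. Of these, 3 had an unadjusted p under 0.05 (15%, against 8.85% of all genes tested in either direction). All 3 were higher in mutants: *Cpe*, *Pcsk1* and *Scg5* (15%, against 4.84% of all genes on the higher side). *Cpe*, carboxypeptidase E, which trims the basic residues left by convertases, was at 1171, 970.2 and 922.1 CPM in controls 1 to 3 and at 1380, 1372 and 1411 CPM in mutants 1 to 3. Every mutant was above every control, and the adjusted p was 0.163 in edgeR and 0.00691 in DESeq2, in a range over settings of 0.00691 to 0.538. The convertase *Pcsk1* was at 59.4 to 67.7 CPM in controls and 74.6 to 110.8 CPM in mutants, and *Scg5*, the chaperone-like partner of the other convertase *Pcsk2*, at 209.7 to 239.7 and 242.8 to 277.7 CPM. *Pcsk2* was at 124.8 to 177.7 CPM in controls and 127.8 to 171.2 CPM in mutants.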

How the data were processed

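RNA from microdissected ARC of 3 Esr1fl/fl and 3 Esr1fl/fl;Nkx2-1-Cre females was amplified from 50 ng of total RNA and sequenced. The authors deposited raw read counts per gene symbol for each library. The submitters' processing notes name TopHat2 2.1.0, HTSeq 0.6, DESeq2 1.14.1 and the mm9 build, and the annotation and the strand setting of the counting are not given in the sources used here. Coordinates are on NCBIM37, the same assembly as mm9.

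Counts were tested with edgeR 4.0.16 in R 4.3.3 (TMM factors, default expression filter, robust quasi-likelihood F-test, genotype as the only term), with Benjamini-Hochberg adjustment over all 15236 genes tested and a threshold of 0.05. The standard error is the fitted log2 fold change over the square root of F. DESeq2 1.42.0, limma voom 3.58.1, RLE factors, 2 other filters, a replicate block and leaving out each library were alternatives. An exact permutation test of 3 against 3 libraries cannot go below p = 0.1, so none was used for single genes. p-values measure the spread between these 6 samples. Every pair of libraries differed beyond sampling noise (chi-square per degree of freedom 6.95 to 31.5), so none was a copy of another. This cannot tell separate animals from repeated libraries of 1 animal. Each library was counted as 1 sample, as labelled. All 34 symbols were matched in the annotation.

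The members, lists and named genes were chosen with earlier results of these data known. Named with values in every sample were members with an unadjusted p under 0.05, the 3 with the largest fold change and the 3 with the largest within-genotype SD at a mean of 0.5 CPM or more, and others by range. Of the receptor and processing lists, genes with an unadjusted p under 0.05 were named. *Prokr1*, *Prokr2*, *Grpr*, *Ntsr1*, *Ntsr2* and *Pcsk2* were named as partners of those after their values were seen, as were *Oxt*, *Nmb*, *Trh*, *Gal* and *Pcsk1n* with values in every sample.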

Additional observations from a re-analysis of the deposited data

How the results depend on the processing

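The count of precursors past an adjusted p of 0.05 was 0 with edgeR, and it was 3 with DESeq2 (2 higher, 1 lower), 1 (lower) when every gene with at least 1 count was kept, and 0 to 1 (0 to 1 higher) without each library in turn, the 1 being *Nts* without control 2. It stayed at 0 with RLE factors, limma voom, the filter of at least 10 counts in every library and the replicate block. Over all genes, 18 passed, against 191 with DESeq2, 106 with the looser filter, and 7 to 46 without each library. For receptor-list genes the count of 1 became 6, 3 and 1 to 3 in these settings, and for processing genes the 0 became 1 with DESeq2. Correlations of deviations from the genotype means were 0.266, 0.0467 and -0.0183 between same-numbered samples. Between samples of different number they ran from -0.247 to 0.202. With 3 samples of each genotype, these values cannot decide whether replicate numbers pair the samples. The replicate block gave 123 genes in all, 2 receptor-list genes and 1 processing gene. Sign was not stable for *Gal* (-0.0071 to 0.45 over fits that leave out 1 library), *Galp* (-0.13 to 0.75), *Cck* (-0.27 to 0.75), *Hcrt* (-0.21 to 0.61), *Nmu* (-0.67 to 0.37), *Nucb2* (-0.020 to 0.10) and *Apln* (-0.020 to 0.33). With limma voom *Hcrt* was at -0.059 and *Nmu* at -0.14, and *Nmu* was at -0.0315 and *Cck* at 0.90 under the replicate block. The cause of these shifts was not tested, except that *Cck* turns with control 2. Depth limits precursors under 0.5 CPM, where a few counts decide the value.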
